A study of Homo sapiens with 9 samples.

Results

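The genes described here are the zinc finger genes of chromosome 19 that were expressed in HCT116 cells. They are the protein-coding genes of that chromosome with a symbol of ZNF and a number, with or without a letter, whose value reached 1 CPM (the share of the library's reads, scaled to a fixed total) in at least 3 of 9 libraries. The annotation used here lists 246 such genes, 184 of them had a row in the deposited table, and 156 passed this filter, out of 13893 genes tested in all. Of the other 28 rows, 6 were at 0 in every library. The choice used no comparison between the groups.

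HCT116 is an established human colorectal cancer line. The cells were reverse transfected with siRNA at 25 nM by the labels (the general methods of the study give another concentration), and polyadenylated RNA was selected with oligo-dT for single-end sequencing of 50 bases. The 3 groups of 3 libraries were a non-targeting control siRNA, siRNA A and siRNA B, the last 2 directed at the long non-coding RNA SNHG5. All groups carried the same line and reagent, and the methods of the study call the RNA samples of a group biological replicates, while the labels do not say whether they came from separate cultures. The p-values measure the spread between these libraries.

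Most of these genes encode proteins with tandem C2H2 zinc fingers, which bind DNA, behind a KRAB domain. The KRAB domain recruits TRIM28, a scaffold that brings in the histone H3K9 methyltransferase SETDB1, HP1 proteins and histone deacetylases, and the bound region is silenced, often at a retrotransposon. The genes arose by repeated tandem duplication, so neighbours on chromosome 19 are often close relatives.

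The libraries held 15566530 to 23277549 reads. A level of 1 CPM stood for 15.6 to 23.3 reads, a counting error of 20.7% to 25.3%, and intervals of this kind cover counting error only. Scaling between libraries used TMM (trimmed mean of M values) factors of 0.850 to 1.19, and levels below are TMM-scaled CPM. SNHG5 went against the labels: its level was 31.3, 22.1 and 25.9 in the control libraries, 71.5, 58.8 and 67.3 in those labelled siRNA A, and 46.2, 50.3 and 46.1 in those labelled siRNA B. The groups are therefore named below only by their labels, and "siRNA A" stands for "the libraries labelled siRNA A". The epithelial markers EPCAM, CDH1, KRT8, KRT18, KRT19 and CDX2 were all above 7.58 CPM in every library. The fibroblast marker COL3A1 was at or under 0.143 CPM, while COL1A1 was at 8.55 to 19.5 CPM. PTPRC, CD3E, PECAM1 and VWF were not analysed here.

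The zinc finger genes were expressed at low levels. Their control mean ran from 0.553 to 227 TMM CPM with a median of 6.84, against 21.8 for all tested genes, and 100 of the 156 were under 10. Per kb of exon, the median control level was 1.32 CPM per kb for these genes and 4.50 for all tested genes. Only 3 genes were above 50 TMM CPM in control. Of the 156, 141 were at 1 CPM or more in all 9 libraries, and 1, ZNF554, passed the filter only through the control group. At the edge of the filter, ZNF432 and ZNF490 were just inside, where 3 libraries reached 1.03 and 1.04 CPM or more, and ZNF419 and ZNF837 were just outside, at 0.984 and 0.675 CPM by the same measure.

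The level per kb was led by ZNF146, at 54.8 ± 5.60 CPM per kb in control (SD, n = 3), whose protein consists almost entirely of fingers without a KRAB domain. ZNF121 followed at 14.9 ± 1.09, ZNF317 at 12.2 ± 1.05, ZNF581 at 12.2 ± 1.83 and ZNF428 at 9.83 ± 1.62 CPM per kb. ZNF146 was clear of the rest, ZNF121 stood above ZNF317 by more than their SDs, and the last 3 lay within or close to their spread. Of these 5 genes, only ZNF317 carries the KRAB pattern described below. ZNF146 was at 213, 215 and 254 TMM CPM in control, 227, 282 and 274 with siRNA A, and 236, 264 and 219 with siRNA B. The 3 groups overlapped, and neither siRNA moved it past the threshold (siRNA A against control, 0.20 ± 0.12 on the log2 scale, 95% interval −0.06 to 0.46).

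The first question was how each siRNA changed these genes against control. The test was limma on log2(TMM CPM + 1), with p-values adjusted by Benjamini-Hochberg over all 13893 genes and a threshold of 0.05. Differences are given on this log2 scale ± SE, which makes the change of low genes look smaller than it is. With siRNA A, 40 of the 156 zinc finger genes were higher and 27 were lower, while 23.9% of all tested genes were higher and 27.6% lower. Of the 156 genes, 25.6% were higher, near that background, and 17.3% were lower, which was below it. The median log2 fold change was 0.16 over the zinc finger genes and −0.023 over all tested genes. The siRNA A and control libraries did not overlap for 36 of the 40 and 26 of the 27, and among all tested genes 23.1% were called higher and 26.8% lower without overlap.

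With siRNA B far fewer of them passed: 9 were higher and 14 lower, against 15.6% and 18.3% of all tested genes. Both counts were below the background share. The median was −0.10, against 0.0043 for all genes. The siRNA B and control libraries did not overlap for 8 of the 9 and for all 14, against 15.2% and 18% of all tested genes called without overlap. Without ZNF554, which had to differ because it passed the filter through control alone, 26 genes were lower with siRNA A and 13 with siRNA B.

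The comparison of siRNA A with siRNA B tested the difference between the siRNAs directly. Control levels are not part of this difference, but the control libraries enter the scaling and the spread behind its p-values. Here 45 zinc finger genes were higher with siRNA A and 16 were lower, against 17.6% and 19.5% of all tested genes, so the higher genes were more frequent than the background and the lower ones less. The median was 0.21, against −0.014 for all genes. The siRNA A and siRNA B libraries did not overlap for 44 of the 45 and 15 of the 16, against 17.1% and 18.9% of all tested genes called without overlap.

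These splits moved with the scaling between libraries. With library totals alone, the median of all tested genes shifted to −0.34 for siRNA A against control, −0.18 for siRNA B against control and −0.15 for siRNA A against siRNA B. The zinc finger genes then counted 18 higher and 46 lower with siRNA A, 2 and 40 with siRNA B, and 32 and 22 between the siRNAs. Relative to the median of all genes, their median was 0.18 with siRNA A under either scaling, −0.10 and −0.09 with siRNA B, and 0.22 and 0.23 between the siRNAs. A correction for the GC content of each transcript gave 35 higher and 28 lower with siRNA A, 7 and 22 with siRNA B, and 46 and 14 between them. It left a relative median of 0.08 with siRNA A, −0.17 with siRNA B and 0.19 between the siRNAs. Of all tested genes, 25.7% were higher and 25.0% lower with siRNA A after that correction. The shares were 16.6% and 17.4% with siRNA B, and 19.4% and 18.7% between the siRNAs.

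Library by library, the median over the 156 genes of the log2 ratio to the control mean was 0.10, 0.19 and 0.19 in the siRNA A libraries and −0.14, −0.01 and −0.13 in the siRNA B libraries. In the control libraries it was −0.02, −0.05 and 0.05. The siRNA A libraries lay above all control libraries, whereas siRNA B replicate 2 lay among them. siRNA A replicate 2 was the highest of its group for 75 of the 156 genes (48.1%), against 38.1% of all tested genes, and siRNA B replicate 2 was the highest of its group for 79 (50.6%), against 40.3%. Without siRNA A replicate 2, 29 genes were higher and 22 lower with siRNA A, beside 21.1% and 24.4% of all tested genes.

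**Figure D1:**
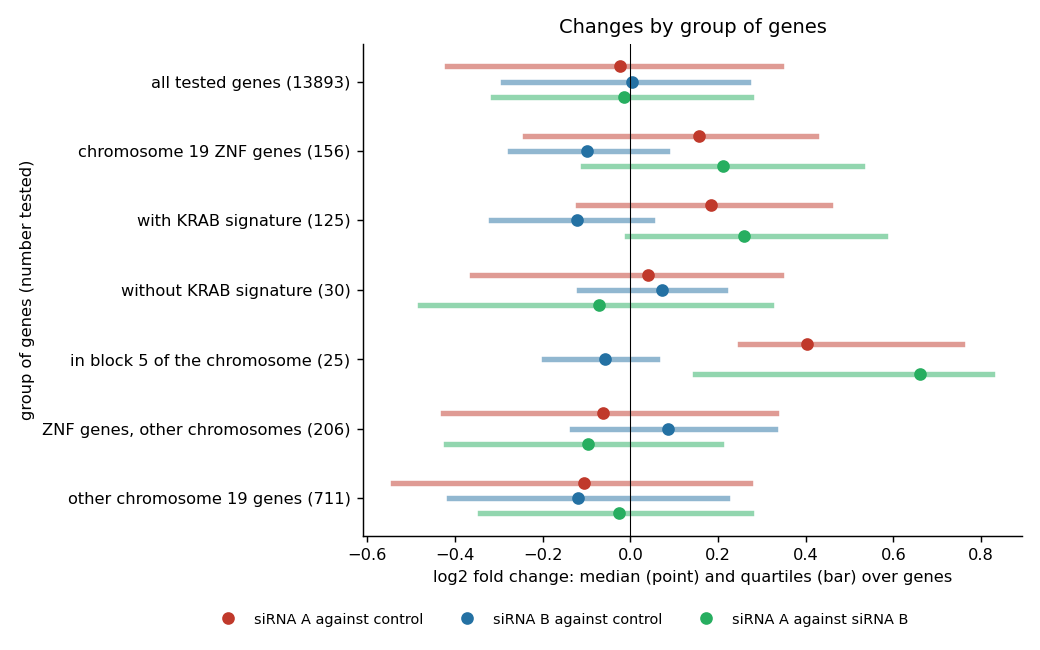
Median (point) and quartiles (bar) over genes of the log2 fold change in each of 3 comparisons, for 7 groups of genes with the number tested in brackets. The 156 chromosome 19 genes have medians of 0.16, −0.10 and 0.21. The 25 genes of block 5 stand apart with siRNA A against control (0.40) and between the siRNAs (0.66), but not with siRNA B against control (−0.06).

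Zinc finger genes on other chromosomes had medians of the opposite sign with each siRNA. Of 206 tested, 51 were higher (24.8%) and 60 lower (29.1%) with siRNA A, with a median of −0.06. These shares were near the 23.9% and 27.6% of all tested genes. With siRNA B 34 were higher (16.5%) and 28 lower (13.6%), against 15.6% and 18.3%, with a median of 0.09. The other 711 protein-coding genes of chromosome 19 had a median of −0.10 with siRNA A (144 or 20.3% higher, 250 or 35.2% lower). With siRNA B their median was −0.12 (104 or 14.6% higher, 186 or 26.2% lower). These are counts side by side, with no test of the difference between the groups of genes.

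Among the chromosome 19 genes, those with the sequence pattern of a KRAB A box in the translated protein were counted apart. The pattern was found in 125 of the 156 and not in 30, and ZNF274 had no intact reading frame in the annotation used. A protein without the pattern may still have a divergent KRAB domain. With siRNA A, 34 of the 125 were higher (27.2%) and 16 lower (12.8%, median 0.18). Of the 30, 6 were higher (20%) and 10 lower (33.3%, median 0.04), beside 23.9% and 27.6% of all tested genes. Between the siRNAs, 37 of the 125 were higher with siRNA A (29.6%) and 6 lower (4.8%, median 0.26). Of the 30, 8 were higher (26.7%) and 9 lower (30%, median −0.07), beside 17.6% and 19.5% of all tested genes. With siRNA B, 6 of the 125 were higher (4.8%) and 12 lower (9.6%, median −0.12). Of the 30, 3 were higher (10%) and 2 lower (6.67%, median 0.072), beside 15.6% and 18.3% of all tested genes.

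The split with siRNA A moved with the processing. After GC correction 25 of the 125 were higher and 21 lower (median 0.11), against 10 and 7 of the 30 (median 0.049), so that the genes without the pattern no longer had more lower than higher. With library totals alone the counts were 14 and 31 against 4 and 14, and without siRNA A replicate 2 they were 22 and 16 against 7 and 6. Of all tested genes, 25.7% were higher and 25.0% lower with siRNA A after GC correction. The shares were 9.05% and 47.0% with library totals alone, and 21.1% and 24.4% without siRNA A replicate 2. Between the siRNAs the GC correction gave 38 higher and 7 lower of the 125, against 8 and 6 of the 30.

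The pattern went together with base composition. Transcript GC had a median of 42.1% in genes with the pattern and 62.4% in those without, and all 18 zinc finger genes with 60% GC or more lacked it. Of these 18, 4 were higher and 8 lower with siRNA A (median −0.28), beside a median of −0.25 over the 2134 tested genes of 60% GC or more. With siRNA B the 18 had a median of 0.13 with 2 higher, whereas the 2134 had a median of −0.14 with 211 higher and 608 lower, and between the siRNAs the medians were −0.32 and −0.12. With siRNA A the 7271 tested genes under 50% GC had a median of 0.09, and the 128 zinc finger genes under 50% had 0.18. Their medians were 0.08 and −0.12 with siRNA B, and 0.02 and 0.25 between the siRNAs. Level also differed, with a control median of 1.09 CPM per kb in genes with the pattern and 3.41 in those without. The part of level in the split by KRAB pattern was not tested.

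The number of fingers, counted by the C2H2 spacing, ran from 1 to 31 with a median of 12. Genes with 5 or fewer had 1 higher and 4 lower of 11 with siRNA A (9.09% and 36.4%, median −0.24). Those with 6 to 10 had 16 and 9 of 45 (35.6% and 20%, median 0.15). Those with 11 to 15 had 15 and 8 of 63 (23.8% and 12.7%, median 0.16). Those with 16 or more had 8 and 5 of 36 (22.2% and 13.9%, median 0.21). Of all tested genes, 23.9% were higher and 27.6% lower with siRNA A.

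By position, the genes were cut into 7 blocks at 8, 15, 25, 40, 50 and 55 Mb of the GRCh37 chromosome. Beside their counts, 23.9% of all tested genes were higher and 27.6% lower with siRNA A. The shares of all tested genes were 15.6% and 18.3% with siRNA B, and 17.6% and 19.5% between the siRNAs. Block 5, from 40 to 50 Mb, differed most in its counts. Of its 25 expressed genes (28 had a row), 13 were higher and 1 lower with siRNA A, with a median of 0.40, and none passed in either direction with siRNA B, with a median of −0.06. In that comparison limma counted 0 higher and 2 lower at an unadjusted p under 0.05, edgeR 0 and 1 after adjustment, and DESeq2 none. With siRNA B, 4 of the 25 were lower with library totals alone (median −0.25), 2 with the replicate block and 2 after GC correction. Between the siRNAs 14 of the 25 were higher with siRNA A and none lower, with a median of 0.66, where 1 was lower at an unadjusted p under 0.05 and edgeR and DESeq2 called none lower. The 166 other tested protein-coding genes of the same block had 40 higher and 52 lower with siRNA A and a median of −0.09. The block median in the single siRNA A libraries was 0.54, 0.55 and 0.43, above the control libraries at −0.03, −0.08 and 0.05. Without siRNA A replicate 2, 8 genes of the block were higher with siRNA A and 12 were higher than with siRNA B. With library totals alone 8 were higher and 3 lower with siRNA A, beside 9.05% and 47.0% of all tested genes.

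Block 6, from 50 to 55 Mb, had 8 of 27 higher and 1 lower with siRNA A (median 0.34). Block 7, beyond 55 Mb, had 9 of 41 higher and 11 lower (median 0.08). Block 4, from 25 to 40 Mb, had 2 of 17 higher and 5 lower with siRNA A, and none higher (by limma with or without adjustment, edgeR or DESeq2) and 4 lower with siRNA B. Block 3, from 15 to 25 Mb, which holds ZNF91 and its relatives, had 3 of 16 higher and 2 lower with siRNA A (median −0.12). Block 2, from 8 to 15 Mb, had 5 of 24 in each direction, and block 1 had 2 of 6 lower and none higher by limma, with or without adjustment, edgeR or DESeq2. Of those 2, 1 was ZNF554.

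**Figure D2:**
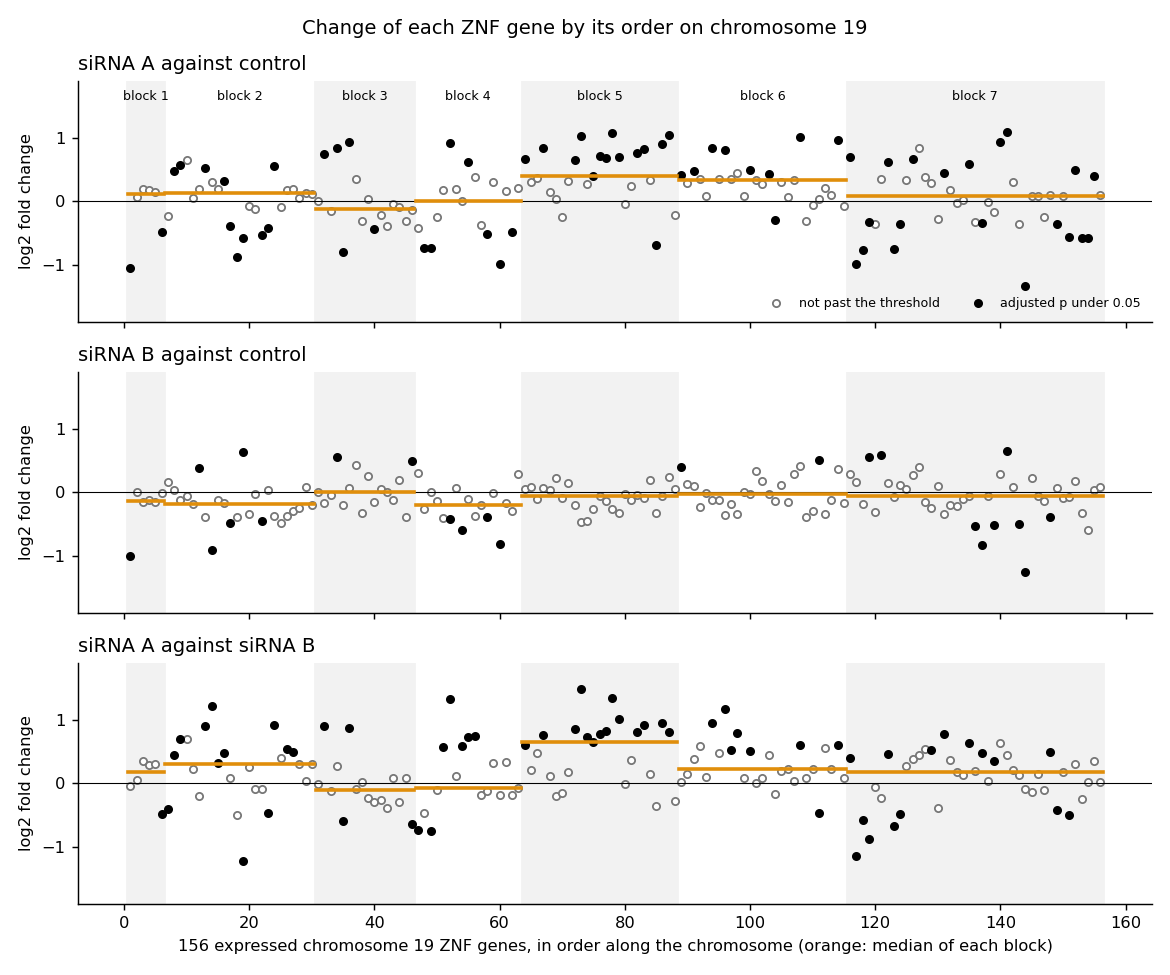
Log2 fold change (vertical axis) of the 156 expressed genes in order along chromosome 19 (horizontal axis), for 3 comparisons, with filled points past the threshold of 0.05 and orange lines at the median of each block. In block 5 the filled points with siRNA A lie above 0 with 1 exception, ZNF112, and none is filled with siRNA B.

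Block 5 holds a run of neighbouring zinc finger genes from ZNF283 to ZNF180 (chr19:44331473-45004576), and this run was singled out after its values were seen. It has 18 rows, of which ZNF223, ZNF284 and ZNF285 were under the filter. Of the 15 expressed genes 10 were higher with siRNA A and 1 was lower, none passed with siRNA B by limma (2 lower at an unadjusted p under 0.05, 1 by edgeR, none by DESeq2, 4 with library totals alone, and 2 each with the replicate block and the GC correction), and 11 were higher with siRNA A than with siRNA B. The run's median was 0.68 with siRNA A, −0.14 with siRNA B and 0.81 between them. By library it was 0.56, 0.90 and 0.45 with siRNA A and −0.10, −0.17 and −0.23 with siRNA B. siRNA A replicate 2 was the highest of its group for 10 of the 15 genes, and without it 6 were higher with siRNA A, 1 was lower, and 10 were higher than with siRNA B. Correction for GC content, library totals alone and leaving out control replicate 2 each also left 6 higher and 1 lower with siRNA A. The run's median with siRNA A was 0.58, 0.39 and 0.63 in these settings.

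The upstream 250 bases of 5 genes of the run are shown, because relatives that lie side by side here changed in different directions. ZNF45, ZNF224, ZNF235 and ZNF227 rose with siRNA A and ZNF112 fell. Sequences are from RefSeq on GRCh38.p14, read 5′ to 3′ on the strand of the gene and ending at the base before its annotated start. Capitals mark matches to GAANTGTAG on the strand shown or to its reverse complement.
ZNF45 (chr19:43935283-43935532, minus strand): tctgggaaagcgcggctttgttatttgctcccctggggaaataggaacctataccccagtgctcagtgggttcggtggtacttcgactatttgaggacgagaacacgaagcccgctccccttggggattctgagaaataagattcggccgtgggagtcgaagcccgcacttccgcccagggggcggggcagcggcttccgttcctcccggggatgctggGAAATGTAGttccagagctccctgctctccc
ZNF224 (chr19:44094111-44094360, plus strand): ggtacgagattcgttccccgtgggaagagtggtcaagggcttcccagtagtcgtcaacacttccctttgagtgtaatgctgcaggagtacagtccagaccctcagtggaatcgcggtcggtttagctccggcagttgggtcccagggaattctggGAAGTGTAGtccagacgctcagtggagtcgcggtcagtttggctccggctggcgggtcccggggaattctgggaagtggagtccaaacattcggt
ZNF235 (chr19:44305026-44305275, minus strand): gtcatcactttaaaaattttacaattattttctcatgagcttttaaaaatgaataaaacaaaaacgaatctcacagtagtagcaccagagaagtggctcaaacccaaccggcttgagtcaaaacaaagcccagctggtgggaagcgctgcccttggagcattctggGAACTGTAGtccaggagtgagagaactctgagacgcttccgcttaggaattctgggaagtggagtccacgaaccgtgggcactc
ZNF112 (chr19:44356705-44356954, minus strand): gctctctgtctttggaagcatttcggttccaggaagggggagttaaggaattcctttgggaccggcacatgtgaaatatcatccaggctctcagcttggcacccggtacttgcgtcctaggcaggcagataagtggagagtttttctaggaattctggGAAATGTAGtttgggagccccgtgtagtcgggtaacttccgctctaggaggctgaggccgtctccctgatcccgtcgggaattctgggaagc
ZNF227 (chr19:44212282-44212531, plus strand): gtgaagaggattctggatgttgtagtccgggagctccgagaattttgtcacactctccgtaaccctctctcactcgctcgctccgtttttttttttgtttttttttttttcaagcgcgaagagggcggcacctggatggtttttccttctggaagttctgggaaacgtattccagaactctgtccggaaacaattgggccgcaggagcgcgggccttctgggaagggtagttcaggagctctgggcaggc

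The letters GAANTGTAG were chosen after these sequences and the changes of the genes were seen, out of 5 strings tried, and no test was made. Of the other strings, GGGAANTGT was in 10 of the 12 windows of the run and 18.0% of zinc finger windows, TGTAGT in 11 and 28.8%, CGGAAG in all 12 and 61.2%, and GGGAA in all 12 and 71.2%. In windows of 250 bases before to 50 bases after the start, 10 of the 12 genes of the run that had a window held a match on either strand (83.3%), 17 of 139 zinc finger genes did (12.2%), and 216 of 10226 tested genes did (2.11%). ZNF222 and ZNF227 of the run had none, and both rose with siRNA A. ZNF112 had one and fell, and ZNF234 and ZNF226 had one and did not pass the threshold. A match is a run of letters and not a binding site, and tandem duplicates share sequence by descent.

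Among common promoter letters, CCGGAAG, the core of the ETS family motif, was found on either strand in 64 of 139 zinc finger windows (46.0%) and in 19.6% of all 10226. CCAAT was found in 51.8% and 36.6%, and TATAAA in 2.16% and 5.36%. CCGGAAG stood in 37.8% of the 37 windows of genes higher with siRNA A, 52.0% of the 25 of genes lower, and 48.1% of the 77 that did not pass.

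ZNF45 (chr19:44416776-44439434 on GRCh37, minus strand) had the widest difference between the siRNAs on the log2(TMM CPM + 1) scale, while the ratio of the siRNA means was 3.14 for it and 4.47 for the low ZNF426. It was at 13, 15.4 and 16.03 TMM CPM in control, 22.8, 48.3 and 27.1 with siRNA A, and 10.8, 11.6 and 8.94 with siRNA B. All siRNA A libraries were above, and all siRNA B libraries below, the control libraries, and siRNA A replicate 2 was far above its fellows. The gene rose with siRNA A by 1.03 ± 0.22 and gave −0.47 ± 0.22 with siRNA B (limma adjusted p of 0.0025 and 0.12). Between the siRNAs it changed by 1.495 ± 0.22 (limma adjusted p = 0.00044). Without siRNA A replicate 2 the rise was 0.72 and the difference between the siRNAs 1.19, both still past the threshold.

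ZNF224 encodes a KRAB protein known as a repressor of the aldolase A gene. Its level was 7.78, 7.56 and 8.69 TMM CPM in control, 12.9, 27.7 and 16.3 with siRNA A, and 6.84, 8.01 and 4.997 with siRNA B. The siRNA A libraries lay above all others, again with replicate 2 the highest, and the siRNA B and control libraries overlapped. The rise with siRNA A was 1.08 ± 0.23 (limma adjusted p = 0.0024), or 2.37-fold between the group means, and 0.79 without siRNA A replicate 2.

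ZNF235 and ZNF227 were steadier between replicates. ZNF235 stood at 11.96, 9.38 and 11.2 TMM CPM in control, 18.1, 21.4 and 20.7 with siRNA A and 11.4, 10.01 and 9.07 with siRNA B, a rise of 0.83 ± 0.13 with siRNA A (limma adjusted p = 0.00033). ZNF227 stood at 17.6, 14.5 and 19.3 in control, 25.9, 32.7 and 30.3 with siRNA A and 16.9, 17.9 and 14.6 with siRNA B, a rise of 0.76 ± 0.14 (limma adjusted p = 0.00076). In both genes the siRNA A libraries were above all others, while control and siRNA B overlapped. Their exons overlap on opposite strands, and since the use of strand in counting was not given in the sources used here, reads of the overlap cannot be told apart. ZNF225, ZNF180, ZNF230, ZNF222, ZNF283 and ZNF155 rose with siRNA A by 0.40 to 0.90. For ZNF283 and ZNF155 the siRNA A and control libraries overlapped.

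ZNF112 was the exception in the run. It was at 3.63, 3.08 and 5.33 TMM CPM in control, 2.29, 1.66 and 2.25 with siRNA A, and 3.27, 3.10 and 2.45 with siRNA B. The siRNA A libraries were the lowest of the 9, and the gene fell by 0.69 ± 0.18 on the log2 scale (limma adjusted p = 0.0069). An exon of another annotated gene lies over it on the same strand.

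**Figure D3:**
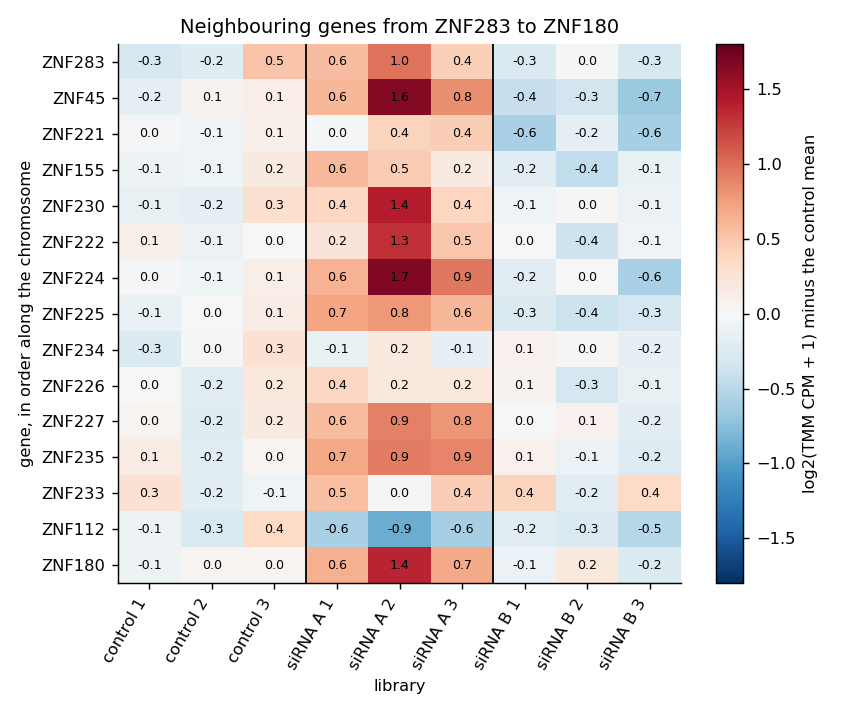
Log2(TMM CPM + 1) of each library (columns) minus the control mean, for the 15 expressed genes from ZNF283 to ZNF180 (rows, in order along the chromosome), with red above and blue below the control mean. The siRNA A columns are red for most genes and deepest in replicate 2 for ZNF45 and ZNF224, ZNF112 is blue, and ZNF234 is pale in every column.

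Outside the run, ZNF776 showed the widest rise with siRNA A on the same scale. It stood at 8.10, 8.38 and 8.52 TMM CPM in control, 16, 24.9 and 17.1 with siRNA A, and 13.1, 18.2 and 10.7 with siRNA B. All libraries of either siRNA were above control. The gene rose by 1.10 ± 0.19 with siRNA A (limma adjusted p = 0.00065), while siRNA B gave 0.65 ± 0.19 (limma adjusted p = 0.022), a call lost in 6 of 16 alternative settings, among them library totals alone (0.46). Another gene's exon overlaps it on the same strand.

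ZNF296, a gene without the KRAB pattern, was at 11.4, 11.1 and 11.1 TMM CPM in control, 24.3, 32.5 and 18.1 with siRNA A, and 13.96, 14.1 and 12.3 with siRNA B. Its siRNA A libraries were the highest, and it rose by 1.05 ± 0.17 (limma adjusted p = 0.00039). ZNF468, with the pattern, was at 6.82, 8.60 and 8.56 in control, 15.3, 20.8 and 15.97 with siRNA A, and 9.88, 13.7 and 9.51 with siRNA B. The groups did not overlap, with siRNA B between control and siRNA A, and it rose by 1.02 ± 0.17 with siRNA A (limma adjusted p = 0.00039), while siRNA B gave 0.41 ± 0.17 (limma adjusted p = 0.076). An exon of ZNF28 overlaps it on the same strand.

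ZNF765 rose with siRNA A by 0.97 ± 0.18 and ZNF430 by 0.94 ± 0.21. ZNF350 encodes ZBRK1, a KRAB protein that binds BRCA1 and represses GADD45A. It was at 2.95, 2.26 and 2.40 TMM CPM in control, 4.57, 7.63 and 4.23 with siRNA A, and 2.95, 1.81 and 2.10 with siRNA B. The siRNA A libraries were again above all others, with a difference of 0.96 ± 0.20 from siRNA B (limma adjusted p = 0.0035). ZNF614 stood at 6.02, 6.47 and 7.43 in control, 10.4, 16.4 and 10.9 with siRNA A, and 5.14, 5.62 and 4.12 with siRNA B, so that the siRNA groups lay on opposite sides of control. Its rise with siRNA A was 0.81 ± 0.17, and siRNA A exceeded siRNA B by 1.17 ± 0.17 (limma adjusted p = 0.00044). ZNF136 had 0.93 ± 0.15 between the siRNAs, and 0.55 ± 0.15 with siRNA A, a call lost with library totals alone.

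On the log2(TMM CPM + 1) scale the widest fall was that of ZNF587B (chr19:58331089-58357606, GRCh37, plus strand). It went from 14.4, 13.7 and 15.99 TMM CPM in control to 5.64, 4.16 and 6.001 with siRNA A and 5.77, 4.39 and 6.84 with siRNA B. Every siRNA library was below every control library, and the siRNA groups overlapped. The gene fell by 1.34 ± 0.17 on the log2 scale with siRNA A (limma adjusted p = 6.9e-05) and fell by 1.25 ± 0.17 with siRNA B (limma adjusted p = 0.00022), or 2.79-fold and 2.59-fold between the means. The siRNAs differed by −0.09, with a 95% interval of −0.45 to 0.28. ZNF586 overlaps it on the same strand, so its reads could have been split in counting.

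ZNF875 was at 13.1, 12.03 and 13.5 TMM CPM in control, 5.95, 5.44 and 6.54 with siRNA A, and 7.38, 5.68 and 7.71 with siRNA B. It too was lower in all siRNA libraries, by 0.99 ± 0.13 with siRNA A (limma adjusted p = 0.00013) and 0.82 ± 0.13 with siRNA B (limma adjusted p = 0.00086). ZNF554 was at 1.48, 2.08 and 1.88 in control, 0.160, 0.453 and 0.482 with siRNA A, and 0.358, 0.323 and 0.526 with siRNA B. The siRNA libraries were all below control, and the means were 4.97-fold and 4.51-fold lower, wider ratios than those of ZNF587B, with log2 differences of −1.05 ± 0.15 and −1.001 ± 0.15. Since it passed the filter through its control libraries alone, it had to differ and is given as a description.

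Several genes fell with siRNA A and did not pass with siRNA B. ZNF579, at 65.98% GC, was at 26.4, 20.1 and 22.1 TMM CPM in control, 12.6, 10.3 and 10.3 with siRNA A, and 25.6, 23.8 and 26.9 with siRNA B. The siRNA A libraries were well below all others, and control and siRNA B overlapped. With siRNA A it fell by 0.98 ± 0.13 (limma adjusted p = 0.0001), and the siRNAs differed by −1.14 ± 0.13 (limma adjusted p = 8.5e-05). ZNF787, at 70.4% GC, went from 38.00, 31.3 and 31.9 in control to 20.6, 18.7 and 19.3 with siRNA A and 35.6, 26.02 and 34.9 with siRNA B. Again only the siRNA A libraries stood apart, with a difference of −0.68 ± 0.13 between the siRNAs (limma adjusted p = 0.0025). ZNF653 (−0.89 ± 0.18), ZNF85 (−0.80 ± 0.15) and ZNF524 (−0.76 ± 0.18) also fell with siRNA A, of which ZNF85 has the KRAB pattern. ZNF181 was lower with siRNA A than with siRNA B by 0.75 ± 0.16, and ZNF507 gave −0.73 ± 0.19 in the same comparison.

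**Figure D4:**
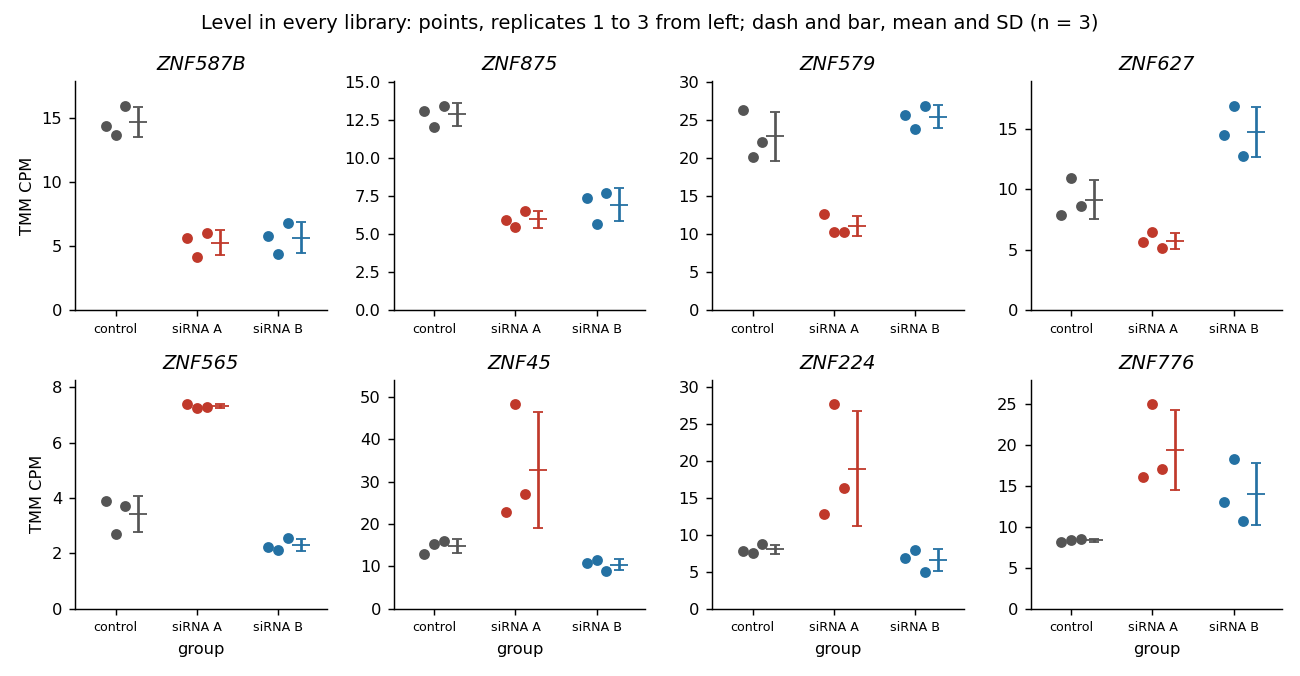
TMM CPM (vertical axes, each from 0) of 8 genes in every library, as points for replicates 1 to 3 from left to right, with a dash and bar for the mean and SD of each group (n = 3). ZNF587B and ZNF875 are low with either siRNA, ZNF579 only with siRNA A, ZNF627 and ZNF565 move to opposite sides of control, and ZNF45, ZNF224 and ZNF776 are highest in siRNA A replicate 2.

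ZNF627, ZNF865 and ZNF565 passed the threshold with both siRNAs, on opposite sides of control, and in each the test between the siRNAs passed as well. ZNF627 was at 7.86, 10.9 and 8.61 TMM CPM in control, 5.64, 6.42 and 5.14 with siRNA A, and 14.5, 16.9 and 12.8 with siRNA B. The 3 groups did not overlap. It fell by 0.58 ± 0.15 with siRNA A, rose by 0.64 ± 0.15 with siRNA B (limma adjusted p = 0.0071 and 0.0072), a gap of −1.22 ± 0.15 (limma adjusted p = 0.00014). Its exons overlap those of ACP5 on the other strand.

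ZNF865 has 20 fingers and no KRAB pattern. Its level was 18.2, 18.98 and 21.1 TMM CPM in control, 16.3, 13.5 and 16.1 with siRNA A, and 28.98, 30.8 and 27.2 with siRNA B. The groups again stood apart, with −0.33 ± 0.11 with siRNA A, 0.56 ± 0.11 with siRNA B and −0.88 ± 0.11 between them (limma adjusted p = 0.031, 0.0032 and 0.00018).

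ZNF565 went the other way. It stood at 3.91, 2.69 and 3.71 TMM CPM in control, 7.39, 7.26 and 7.29 with siRNA A, and 2.24, 2.13 and 2.54 with siRNA B, without overlap of the groups. It rose by 0.92 ± 0.14 with siRNA A and fell by 0.42 ± 0.14 with siRNA B, and the siRNAs differed by 1.33 ± 0.14 (limma adjusted p = 5.6e-05). Its exons overlap those of the far more abundant ZNF146 on the other strand, and reads of the overlap cannot be told apart.

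With siRNA B the falls were led, after ZNF587B and ZNF554, by ZNF426. It was at 1.87, 1.48 and 2.75 TMM CPM in control, 2.92, 2.95 and 2.30 with siRNA A, and 0.760, 0.323 and 0.745 with siRNA B. The siRNA B libraries were the lowest of the 9, and it fell by 0.91 ± 0.18 with siRNA B (limma adjusted p = 0.0029), with siRNA A above siRNA B by 1.22 ± 0.18. No siRNA B library of ZNF426 reached 1 CPM. The gene passed the filter only through the control and siRNA A libraries, where it was high, so its differences are given as a description. ZNF134 was at 10.4, 12.03 and 12.8 in control, 8.13, 9.52 and 9.48 with siRNA A, and 6.04, 6.52 and 5.92 with siRNA B. Its groups were ordered without overlap, with −0.34 ± 0.12 for siRNA A and −0.83 ± 0.12 for siRNA B (limma adjusted p = 0.036 and 0.00045). ZNF566 was at 8.73, 8.90 and 8.82 in control, 8.88, 8.62 and 9.16 with siRNA A, and 5.81, 5.10 and 5.74 with siRNA B, so that only siRNA B stood apart (−0.59 ± 0.11, limma adjusted p = 0.0021). ZNF551 (−0.51 ± 0.12) and ZNF530 (−0.53 ± 0.18) fell with siRNA B as well, and the call of ZNF530 was lost in 6 of 16 alternative settings.

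The rises with siRNA B, beside those of ZNF776, ZNF627, ZNF865 and ZNF473, ran from 0.39 to 0.59. ZNF90, named after its values were seen, gave 0.57 ± 0.18 with siRNA B, where its libraries overlapped control, and 0.84 ± 0.18 with siRNA A. ZNF580 gave 0.59 ± 0.17, ZNF160 0.51 ± 0.17, ZNF254 0.49 ± 0.14 and ZNF177 0.39 ± 0.13. The calls of ZNF580, ZNF160, ZNF254 and ZNF177 were lost with library totals alone, where they gave 0.25 to 0.39, and that of ZNF177 in 10 of 16 settings. The exons of ZNF580, ZNF581 and CCDC106 overlap on the same strand.

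Of the genes chosen for a known role, ZNF274, which recruits SETDB1 to the 3′ ends of other zinc finger genes, was at 10.8, 9.86 and 10.4 TMM CPM in control, 7.34, 8.01 and 8.41 with siRNA A, and 11.5, 9.17 and 12.2 with siRNA B. The siRNA A libraries were the lowest, at −0.35 ± 0.13 (limma adjusted p = 0.039), a call lost in 10 of 16 settings. ZNF473, which acts in the 3′ end processing of histone pre-mRNA, was at 22.1, 23.9 and 25.8 in control, 28.6, 36.7 and 32.3 with siRNA A, and 28.6, 38.7 and 29.2 with siRNA B. It was higher in all siRNA libraries, by 0.42 ± 0.14 and 0.40 ± 0.14 (limma adjusted p = 0.023 and 0.042), and with library totals alone by 0.07 and 0.20, neither past the threshold. ZNF154, which is often methylated in tumours, was at 1.40, 0.347 and 0.524 in control, 3.62, 1.51 and 1.98 with siRNA A, and 0.537, 0.968 and 2.02 with siRNA B. The siRNA A libraries were above control (0.94 ± 0.30, limma adjusted p = 0.019), a call lost in 3 of 16 settings, and siRNA B overlapped both.

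ZNF304 did not pass with either siRNA against control (0.29 ± 0.18 and −0.24 ± 0.18). It differed between the siRNAs by 0.53 ± 0.18 (limma adjusted p = 0.043), which was lost in 7 of 16 settings. ZNF91, a repressor of SVA retrotransposons, varied widely within groups, at 10.1, 4.65 and 5.90 TMM CPM in control, 8.67, 3.02 and 8.14 with siRNA A, and 5.99, 6.71 and 10.96 with siRNA B, so that an SE of 0.34 went with each of its differences. ZNF675, which binds TRAF6, ZNF649 and ZNF175 did not pass in any of the 3 comparisons. ZNF331 was under the filter, and ZNF93, ZNF420 and ZNF568 were not analysed here.

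The proteins that KRAB zinc fingers act through were taken as a list of 23, of which 22 were tested. With siRNA A, 6 were higher and 8 lower (median −0.092), against 23.9% and 27.6% of all tested genes. With siRNA B, 8 were higher and 2 lower (median 0.23), against 15.6% and 18.3%. Between the siRNAs, 1 was higher with siRNA A and 9 were lower (median −0.14), against 17.6% and 19.5%. With library totals alone the counts became 2 higher and 12 lower with siRNA A (9.09% and 54.5%), and 2 higher and 3 lower with siRNA B (9.09% and 13.6%). Of all tested genes, 9.05% were then higher and 47.0% lower with siRNA A, and 6.90% and 29.7% with siRNA B. TRIM28 itself, the direct partner of the KRAB domain, rose by 0.92 ± 0.12 with siRNA A (limma adjusted p = 8.1e-05), from a mean of 727 to 1384 TMM CPM, and gave −0.05 ± 0.12 with siRNA B. SETDB1, the H3K9 methyltransferase, gave −0.08 ± 0.10 and −0.04 ± 0.10, but −0.44 with siRNA A, past the threshold, with library totals alone. Among the HP1 proteins, CBX3 rose with siRNA A by 0.78 ± 0.17 and CBX1 by 0.30 ± 0.11. With siRNA B CBX1 rose by 0.43 ± 0.11, while CBX3 (0.48 ± 0.17) did not pass. CBX5 passed with neither siRNA (0.50 ± 0.23 and 0.58 ± 0.23). With library totals alone no call of CBX3 or CBX1 was kept, with CBX3 at 0.41 and CBX1 at −0.06 with siRNA A, and CBX1 at 0.21 with siRNA B.

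The DNA methyltransferase DNMT1 fell with siRNA A by 1.13 ± 0.12 on the log2 scale, DNMT3A by 0.97 ± 0.15 and DNMT3B by 0.37 ± 0.11. After GC correction the DNMT3B call with siRNA A was lost (−0.26). DAXX and ATRX, which together place histone H3.3, fell with siRNA A by 0.65 ± 0.11 and 0.92 ± 0.25, and TASOR and PPHLN1, both of the HUSH complex, fell by 0.62 ± 0.18 and 0.72 ± 0.10. Of these 7 genes, DNMT3B (−0.51 ± 0.11) and PPHLN1 (−0.37 ± 0.10) also fell with siRNA B, DAXX rose there by 0.39 ± 0.11, and the other 4 did not pass. With library totals alone the DAXX call with siRNA B was lost (0.18), and DNMT1 passed as lower there (−0.48). CHD3 fell with siRNA A by 0.59 ± 0.15 and rose with siRNA B by 0.68 ± 0.15, and the siRNAs differed by −1.27 ± 0.15. MORC3 rose with either siRNA, by 0.85 ± 0.11 and 1.01 ± 0.11. Whether these changes bear on the zinc finger genes was not tested.

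**Figure D5:**
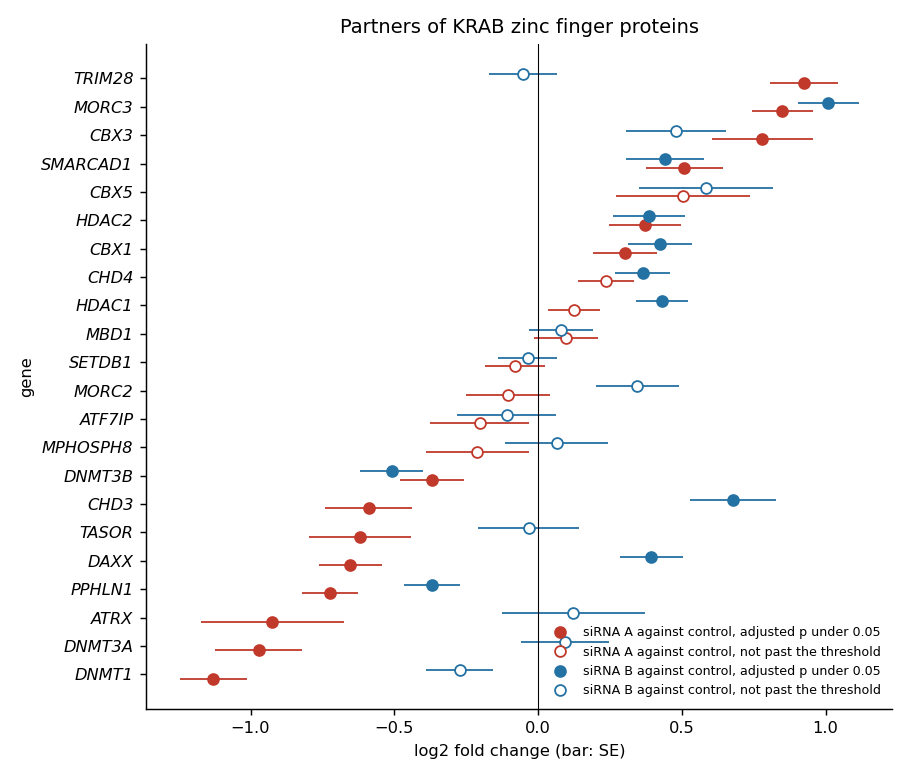
Log2 fold change with its SE (horizontal axis) of the 22 tested partner genes (vertical axis, ordered by siRNA A), in red for siRNA A and blue for siRNA B against control, filled where adjusted p was under 0.05. TRIM28 lies at 0.92 with siRNA A and −0.05 with siRNA B, and DNMT1 at the other end, at −1.13 with siRNA A.

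The short reads limit what can be said of single relatives. For 5 of the 156 genes, ZNF799, ZNF443, ZNF585B, ZNF587 and ZNF417, over 20% of the 50-base windows of the transcript also occur in transcripts of other genes, and the median share was 1.21%. An exon of another annotated gene lies over an exon of 95 of the 156 genes, on the same strand for 59 of them.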

How the data were processed

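Polyadenylated RNA of HCT116 cells was sequenced from 9 libraries, 3 for each of control siRNA, siRNA A and siRNA B, grouped by the labels. The authors deposited 1 table of CPM per gene (15354 rows), and the submitters' processing notes name TopHat2, HTSeq and GRCh37/hg19. Strand use in counting is not given in the sources used here. Whole reads were recovered from the CPM steps (100% of values within 0.1 read). Gene names, exons and coordinates came from a GENCODE annotation on GRCh37, which matched 14871 rows, and promoters from RefSeq on GRCh38.p14.

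Genes with 1 CPM in 3 libraries were kept. TMM factors from the recovered reads scaled the CPM, and limma 3.58.1 (R 4.3.3) was fitted to log2(TMM CPM + 1) with a mean per group over all 9 libraries and two-sided tests, adjusted by Benjamini-Hochberg over 13893 genes at 0.05. A total of 15566530 to 23277549 reads per library gave a counting error of 20.7% to 25.3% at 1 CPM. The scripts were tested on simulated data.

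KRAB patterns and fingers were found in translated coding sequences of the annotation, in place of the RefSeq proteins that were planned. The members, the gene lists and the rule for named genes (the largest changes past the threshold in each comparison, the highest levels per kb, and genes of known role) were chosen with earlier results of these data known. Control and siRNA A libraries of the same number deviated together (r of 0.65, 0.41 and 0.13 over genes). Each r was above the 0.1 that was set as a rule for pairing, a pattern of the data that the labels do not explain. Libraries of unlike number were not compared, so the check cannot show that the numbers pair the libraries. Alternatives were library totals alone, a pseudocount of 0.1, no filter on low values, the replicate block, a GC correction, edgeR 4.0.16 and DESeq2 1.42.0 on recovered reads, and leaving out each library.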

Additional observations from a re-analysis of the deposited data

How the results depend on the processing

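Library totals alone moved the counts most, and they moved those of all tested genes as well. With siRNA A they gave 18 higher and 46 lower with a median of −0.16, with siRNA B 2 higher and 40 lower with a median of −0.28, and between the siRNAs a median of 0.078. The GC correction gave a median of 0.088 with siRNA A and 22 lower with siRNA B, and the fit with the replicate block also gave 22 lower with siRNA B. Of all tested genes, 17.4% were lower with siRNA B after GC correction and 21.8% with the block. The block moved no other of these counts by over 1.5 times. With it, 48 genes were higher (30.8%) and 31 lower (19.9%) with siRNA A, beside 27.5% and 30.8% of all tested genes. For control against siRNA B and for siRNA A against siRNA B the rule for pairing was not met. The correlation of deviations for number 3 was −0.39 and 0.019 there. Leaving out 1 library gave 3 to 10 higher and 8 to 17 lower with siRNA B (3 without control replicate 2, 8 without control replicate 3), and 10 to 15 lower between the siRNAs (10 without siRNA B replicate 3). The cause of these moves was not tested, except that fewer libraries enter the last.

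Of 59 called values taken by the rule for named genes, 42 stayed past the threshold in all 16 alternatives, 17 were lost in at least 1, and 0 changed direction. The 42 include the calls of ZNF554 with siRNA A and siRNA B, which had to differ. They also include those of ZNF426 with siRNA B and between the siRNAs, where no siRNA B library reached 1 CPM. Some calls given above are not among the 59, such as ZNF865 and ZNF134 with siRNA A and ZNF565 with siRNA B. Values not past the threshold changed sign. With library totals alone, ZNF146 gave −0.17 with siRNA A, −0.13 with siRNA B and −0.033 between them (and −0.038 with siRNA B after GC correction), ZNF121 −0.16 with siRNA A, ZNF581 −0.053 with siRNA B, ZNF428 −0.020 and −0.056 with siRNA A and B, ZNF175 −0.056 and −0.069 with siRNA A and B, ZNF274 −0.13 with siRNA B, ZNF304 −0.054 with siRNA A, and between the siRNAs ZNF473 −0.13 and ZNF675 −0.042. Leaving out 1 library, ZNF91 ran from −0.32 to 0.32 with siRNA A, from −0.041 to 0.46 with siRNA B and from −0.51 to 0.12 between them, ZNF274 from −0.00716 to 0.18 with siRNA B, and between the siRNAs ZNF473 from −0.067 to 0.16 and ZNF675 from −0.026 to 0.24. At under 10 TMM CPM, where most of these genes lie, counting error limits what could be detected.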
